A study of Mus musculus with 7 samples.

Results

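Proline tRNAs were followed in the RNA of RAW264.7 cells, a mouse macrophage line, and of the extracellular vesicles (EVs) that these cells release. The members (tRNA-Pro in the deposited names) were all rows of the deposited count table whose name contains tRNA-Pro-, apart from rows for exon, intron or UTR pieces. They came to 6 rows, out of 224 tRNA rows and 3894 rows that stand for whole RNAs. By anticodon they form 3 families. tRNA-Pro-AGG-1-1 is the single AGG row, tRNA-Pro-CGG-1-1 is the single CGG row, and TGG has 4 rows named tRNA-Pro-TGG-1-1, tRNA-Pro-TGG-2-1, tRNA-Pro-TGG-3-1 and tRNA-Pro-TGG-4-1.

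The study sequenced 7 libraries, 1 for each group, and all cells received doxycycline. EV RNA came from shDis3l2 cells that also carried Dis3l2 with the D389N change (D389N), from shDis3l2 cells with an shRNA-resistant Dis3l2 transgene (Dis3l2r), from shDis3l2 cells with an empty vector (Vector), from shDis3l2 cells without a further construct, and from cells with a non-silencing hairpin (shNS). Whole-cell RNA came from shDis3l2 cells and from shNS cells. Every group except shNS thus carried the hairpin against Dis3l2, and the series describes the D389N protein as lacking catalytic activity. The 2 cell lines of the whole-cell libraries had EV libraries too, whereas D389N, Dis3l2r and Vector were sequenced from EVs only. EVs were purified by density in sucrose and digested with micrococcal nuclease, and only the whole-cell RNA is labelled as rRNA-depleted. The labels do not state whether a line is a clone or a pool. Transcript IDs come without gene names in the deposited table, so neither the knockdown of Dis3l2 nor macrophage markers could be checked.

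A proline tRNA carries proline to the ribosome, where its anticodon pairs with a codon of the CCN box. Isoacceptors are tRNAs that carry the same amino acid with different anticodons. In the AGG isoacceptor the first anticodon base is converted to inosine in the mature tRNA, and inosine is copied as if it were guanosine during reverse transcription. The CGG and TGG isoacceptors begin with C and with U in the RNA. In the names, the first number after the anticodon marks a distinct mature sequence and the second a gene copy. Dis3l2 is a 3′ to 5′ exoribonuclease that prefers RNAs with an added uridine tail, and small RNA polymerase III transcripts are among its known substrates.

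RefSeq lists 16 proline tRNA genes on the mouse build GRCm38.p6, out of 430 tRNA genes. There are 6 with anticodon AGG, 3 with CGG and 7 with TGG, each 72 bases long, on 9 chromosomes. In 3 places a proline tRNA gene lies within 1500 bases of another with a different anticodon. The closest pair is on chromosome 7, where n-TPtgg8 at chr7:98815415-98815486 and n-TPagg7 at chr7:98815676-98815747 are 190 bases apart. On chromosome 1, n-TPagg2 at chr1:165641634-165641705 and n-TPcgg2 at chr1:165642271-165642342 are 566 bases apart. One gene, n-TPtgg2 at chr11:67291139-67291210, overlaps Myh8, which encodes a muscle myosin heavy chain. The RefSeq symbols are not paired with the row names of the count table, so no row was given a locus. Because the annotated genes are equal in length, the counts of proline rows were compared with each other without a length correction.

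Depth was 13439408 to 25177102 counts on whole-RNA rows in the EV libraries and 32342600 and 37041326 in the shDis3l2 and shNS cell libraries. tRNA rows held 69.5% to 75.8% of these counts in EVs, and 8.84% in shDis3l2 cells and 13.3% in shNS cells. Exon, intron and UTR pieces are outside these totals. With them, all table rows held 2.49e+07 to 4.13e+07 counts in EVs, 6.72e+07 in shDis3l2 cells and 7.28e+07 in shNS cells. A single transcript, ENSMUST00000083988, took 46.1% of the whole-RNA counts of shDis3l2 cells and 19.3% of those of shNS cells. Its share was 2.08% to 8.30% in EVs. Levels below are in CPM, the counts of a row scaled to a whole-RNA total of 1000000.

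Proline tRNAs made up a few percent of the whole-RNA counts of EVs and under 1 percent of those of cells. All 6 rows together reached 45952 CPM in D389N EVs, 44570 in Dis3l2r EVs, 50844 in Vector EVs, 39224 in shDis3l2 EVs and 45185 in shNS EVs. The sum was 3234 CPM in shDis3l2 cells and 7792 CPM in shNS cells. The EV libraries averaged 45155 ± 4139 CPM (SD, n = 5 libraries of different genotypes), and the lowest EV library lay above the higher cell library. These levels are shares of the whole-RNA counts of a library, so they do not give the amount of proline tRNA in an EV or a cell.

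tRNA-Pro-TGG-2-1 was the most abundant proline row in every library. It stood at 21263 CPM in D389N EVs, 21797 in Dis3l2r EVs, 24940 in Vector EVs, 19519 in shDis3l2 EVs and 23340 in shNS EVs. In cells it had 1634 CPM with shDis3l2 and 4105 CPM with shNS. The highest EV library exceeded the lowest by 1.28-fold, whereas the cell libraries differed by 2.51-fold.

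tRNA-Pro-CGG-1-1 followed closely behind. Its levels were 19683 CPM in D389N EVs, 18882 in Dis3l2r EVs, 22212 in Vector EVs, 17123 in shDis3l2 EVs and 18531 in shNS EVs. shDis3l2 cells had 1324 CPM and shNS cells had 2989 CPM. Vector EVs were highest and shDis3l2 EVs lowest for both of these rows, with a spread over EV libraries of 1.30-fold for the CGG row.

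tRNA-Pro-TGG-1-1 was the third row. It had 4870 CPM in D389N EVs, 3790 in Dis3l2r EVs, 3611 in Vector EVs, 2540 in shDis3l2 EVs and 3265 in shNS EVs. Cells had 240 CPM with shDis3l2 and 626 CPM with shNS. Here D389N EVs rather than Vector EVs were highest, and the EV libraries spread over 1.92-fold.

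tRNA-Pro-AGG-1-1 was far lower than the rows above in every library and behaved unlike them. It had 134 CPM in D389N EVs, 101 in Dis3l2r EVs, 81.2 in Vector EVs, 39.7 in shDis3l2 EVs and 47.7 in shNS EVs. shDis3l2 cells had 37.2 CPM and shNS cells had 72.1 CPM. These levels rest on 732 to 2818 counts a library. The EV and cell ranges overlapped: 3 EV libraries lay above both cell libraries, and 2 lay between them. Among EVs the highest library exceeded the lowest by 3.38-fold, the widest spread of the 4 rows with at least 100 counts.

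tRNA-Pro-TGG-3-1 and tRNA-Pro-TGG-4-1 were near the floor of detection, with at most 20.5 counts in a library and together at most 0.00651% of TGG counts. tRNA-Pro-TGG-3-1 had 11.26, 6.235, 10.041, 9.624 and 20.488 estimated counts in D389N, Dis3l2r, Vector, shDis3l2 and shNS EVs, against 0 in shDis3l2 cells and 2 in shNS cells. tRNA-Pro-TGG-4-1 had 9.609, 4.095, 1.003, 6.003 and 20.512 estimated counts in the same EV libraries, against 0 in shDis3l2 cells and 1 in shNS cells. A count of 0 in shDis3l2 cells allows a level of up to 0.0928 CPM. The estimated counts of the 4 rows with at least 100 counts were not whole numbers in any of the 7 libraries (tolerance 0.0015), so some reads were divided between rows. The sum of all proline rows was not whole in any library either at this tolerance. Whether reads were shared with rows outside proline, and how reads of similar tRNAs were divided, was not tested.

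**Figure D1:**
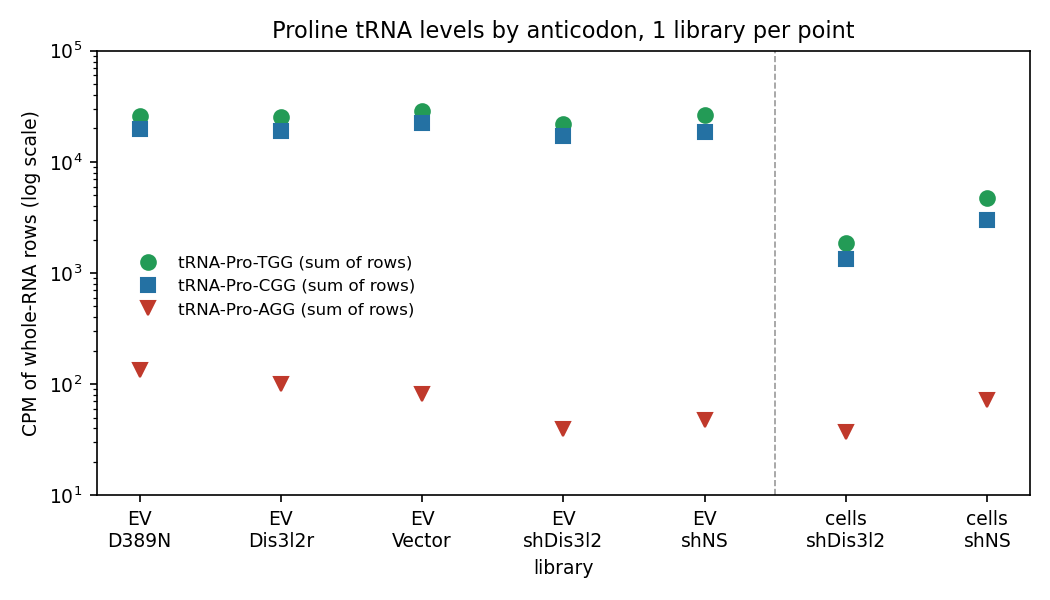
Level of each proline anticodon family in CPM of whole-RNA rows (log axis) in the 7 libraries, 1 point per family and library, with EVs left of the dashed line and cells right of it. TGG and CGG lie between 17123 and 28552 CPM in EVs and between 1324 and 4731 CPM in cells, while AGG stays between 37.2 and 134 CPM on both sides.

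The make-up of the proline pool does not depend on how libraries are scaled to each other. TGG held 56.9%, 57.4%, 56.2%, 56.2% and 58.9% of proline tRNA counts in D389N, Dis3l2r, Vector, shDis3l2 and shNS EVs, and 57.9% and 60.7% in shDis3l2 and shNS cells. CGG held 42.8%, 42.4%, 43.7%, 43.7% and 41.0% in the same EVs, and 40.9% and 38.4% in the same cells. TGG thus outnumbered CGG in all 7 libraries, with 0.632 to 0.778 CGG counts for each TGG count. Over the 7 libraries the centred log2 levels of these families differed by a root mean square of 0.0984, against 1.29 between AGG and TGG and 1.35 between AGG and CGG.

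AGG held a smaller part of the proline counts in EVs than in cells. Its share was 0.293% (exact Clopper-Pearson 95% interval 0.282% to 0.304%) in D389N EVs, 0.226% (0.214% to 0.238%) in Dis3l2r EVs and 0.160% (0.153% to 0.167%) in Vector EVs. It was 0.101% (0.0941% to 0.109%) in shDis3l2 EVs and 0.106% (0.0995% to 0.112%) in shNS EVs. In shDis3l2 cells it was 1.15% (1.09% to 1.22%) and in shNS cells 0.925% (0.891% to 0.961%). The share in cells was 11.4 times that in EVs of the same line for shDis3l2 and 8.76 times for shNS, and the lower cell library stood 3.16 times above the highest EV library. The intervals cover counting error only. TGG had 194 to 558 counts for each AGG count in EVs and 50.3 and 65.6 in shDis3l2 and shNS cells, although RefSeq lists 6 AGG and 7 TGG genes. The part that the assignment of reads plays in the level and share of AGG was not tested.

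The 3 isoacceptor shares were compared between the 5 EV and the 2 cell libraries with a two-sided exact permutation test over libraries, which cannot give a p below 0.0952 with 21 arrangements. AGG differed by -0.86 percentage points (mean 0.177% in EVs and 1.04% in cells) and reached that smallest p of 0.0952 in the permutation test. CGG differed by 3.06 points (42.7% and 39.6%), also with an exact p of 0.0952, although shNS EVs at 41.0% lay next to shDis3l2 cells at 40.9%. TGG was 57.1% in EVs and 59.3% in cells, with overlapping libraries and an exact p of 0.190. Without the shDis3l2 cells the differences were 4.35 points for CGG and -3.60 for TGG, and without the shNS cells 1.78 and -0.80. With Benjamini-Hochberg adjustment over the 3 families, the permutation p was 0.143 for AGG and for CGG and 0.190 for TGG. With a smallest unadjusted p of 0.0952, no share could pass 0.05 in this design.

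Within TGG, the split between rows varied among EVs. tRNA-Pro-TGG-1-1 held 18.6% of TGG counts in D389N EVs (95% interval 18.5% to 18.7%), 14.8% in Dis3l2r EVs, 12.6% in Vector EVs, 11.5% in shDis3l2 EVs and 12.3% in shNS EVs. It held 12.8% in shDis3l2 cells and 13.2% in shNS cells. Only the D389N and Dis3l2r EVs, both from cells with a Dis3l2 transgene, lay above the 2 cell libraries. With 1 library for each construct, the construct and the library cannot be told apart.

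**Figure D2:**
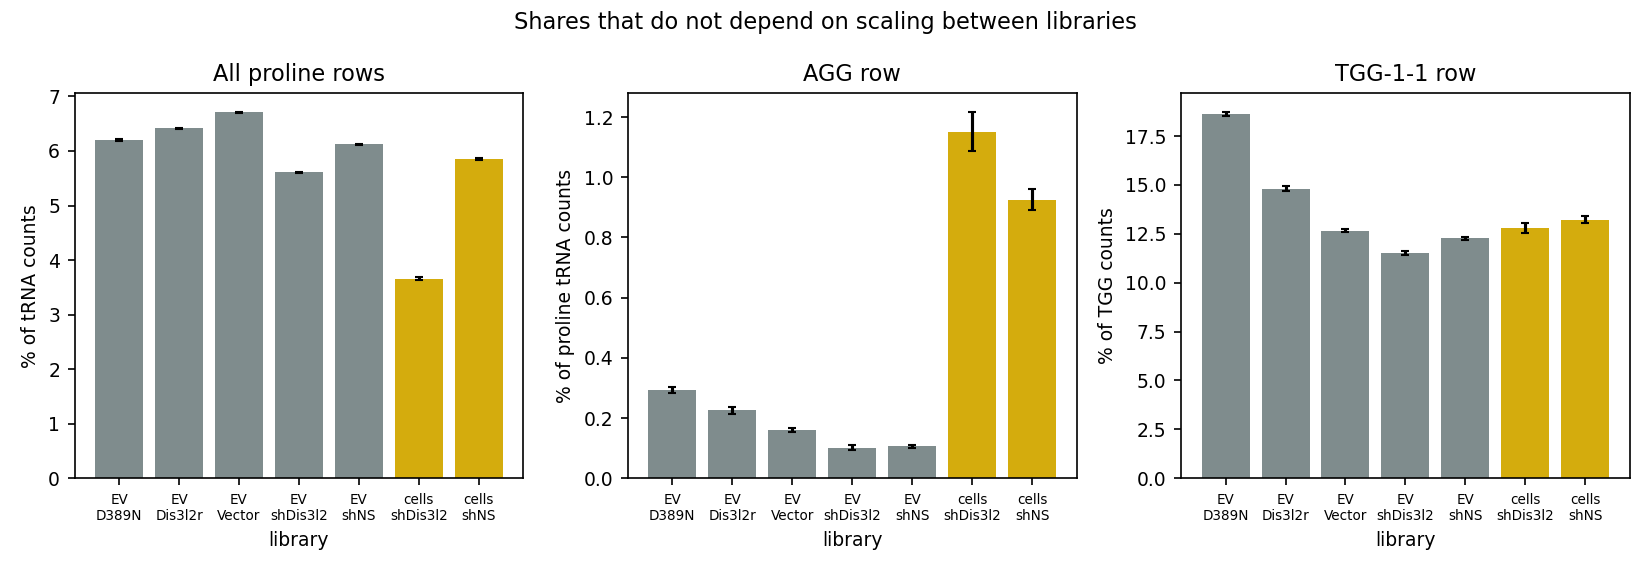
Shares of counts that need no scaling between libraries, with exact 95% intervals that cover counting error only: all proline rows as percent of tRNA counts (left), the AGG row as percent of proline tRNA counts (middle) and tRNA-Pro-TGG-1-1 as percent of TGG counts (right). EVs are grey and cells yellow, and AGG is at 0.101% to 0.293% in EVs against 1.15% and 0.925% in cells.

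Set against cells, EVs had higher levels of the CGG and TGG proline tRNAs, by 3.25 and 3.10 on the log2 scale, and no called difference in AGG. EVs were nuclease-digested and only the cell RNA was labelled as rRNA-depleted, so compartment and preparation cannot be told apart. A fit over all 7 libraries, 5 EV against 2 cell, was scaled by the totals of whole-RNA rows with Dis3l2 class as a covariate and had 4 residual degrees of freedom. The libraries of a compartment are different genotypes that stand in for replicates. Its p-values therefore rest on the spread between these libraries, which edgeR moderates for each row with the spread of the other rows tested. By edgeR's quasi-likelihood test with Benjamini-Hochberg adjustment over all 641 rows tested, the CGG row and the 2 abundant TGG rows were higher in EVs, and no proline row was lower. Over all rows tested, 31.5% were called higher, and over the 197 tRNA rows tested, 72.1% were, so a higher level in EVs was common to most tRNA rows.

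tRNA-Pro-CGG-1-1 was higher in EVs by 3.25 on the log2 scale (SE 0.490, edgeR adjusted p 4.9e-05), with 19286 ± 1879 CPM in EVs (SD, n = 5) and 2156 ± 1177 CPM in cells (SD, n = 2). tRNA-Pro-TGG-2-1 was higher by 3.08 (SE 0.489, edgeR adjusted p 7.65e-05), and tRNA-Pro-TGG-1-1 by 3.19 (SE 0.538, edgeR adjusted p 0.000131). For each of these rows all 5 EV libraries lay above both cell libraries. The size rests on which cell library is used: without the shDis3l2 cells the CGG row was higher by 2.65, and without the shNS cells by 3.89. It rests on the scaling too: the CGG row was higher by 2.75 with TMM and by 4.49 with DESeq2 size factors.

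The scarce rows tRNA-Pro-TGG-3-1 and tRNA-Pro-TGG-4-1 had 0 to 2 counts in cells and passed the filter on low counts only through their EV libraries. Their fitted differences, 4.35 and 4.68, take their direction from that filter and are given as a description. With no filter neither was called (edgeR adjusted p 0.191 and 0.216), nor with the DESeq2 Wald test. In shDis3l2 the cell library had 0 counts of each, and the EV library had 10 of tRNA-Pro-TGG-3-1 and 6 of tRNA-Pro-TGG-4-1. Both fall short of the 100 counts asked of a pair below, so no ratio is given.

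tRNA-Pro-AGG-1-1 averaged 80.8 ± 38.9 CPM in EVs (SD, n = 5) and 54.7 ± 24.7 CPM in cells (SD, n = 2), a log2 difference of 0.60 (SE 0.644, edgeR adjusted p 0.393). On the 4 shNS and shDis3l2 libraries alone its difference was -0.25 (edgeR adjusted p 0.767). With DESeq2 size factors, which moved the median row by 1.23 on the log2 scale, it was called at 1.89 (edgeR adjusted p 0.0287). It was 0.13 with TMM and 0.10 without ENSMUST00000083988 in the totals. Without the shDis3l2 cells it was 0.04, and without the shNS cells 1.19. In this fit the call of AGG thus depended on the scaling, and its sign on the libraries used.

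With rows summed by anticodon, CGG was higher by 3.25 (SE 0.475, edgeR adjusted p 3.67e-05) and TGG by 3.10 (SE 0.475, edgeR adjusted p 5.52e-05), and AGG stood at 0.60 (edgeR adjusted p 0.409). Of all 494 rows and families in this fit 20.2% were called higher, and of its 50 tRNA families 84% were; the tRNA families' median log2 difference was 2.59. CGG was number 15 and TGG number 17 from the top, and AGG was number 45. On this summed table AGG was called higher with TMM scaling (3.09, edgeR adjusted p 0.000972) and with DESeq2 size factors (5.31, edgeR adjusted p 9.55e-05). Those scalings moved the median row by 2.52 and 4.66 on the log2 scale, and CGG and TGG with it. CGG was then at 5.74 and 7.93, and TGG at 5.59 and 7.78.

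**Figure D3:**
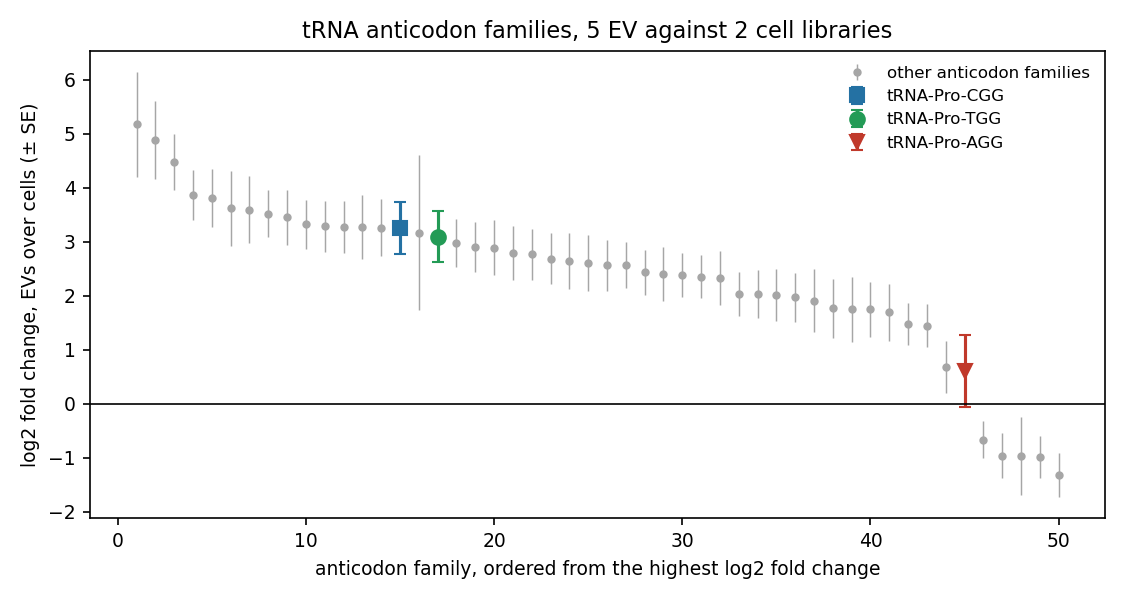
Log2 difference of 5 EV over 2 cell libraries for each of 50 tRNA anticodon families (points, ± SE, edgeR), ordered from the highest. Proline CGG (3.25) and TGG (3.10) lie above the median family at 2.59, and proline AGG (0.60) is number 45.

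Within each line, the EV and cell libraries were compared as single-library ratios with an exact conditional binomial 95% interval. The rule of size asked for 100 counts or more in the pair, a ratio of 2-fold or more and an interval without 1. In shDis3l2, 3 proline rows passed, all higher in EVs, while 91.2% of all rows measured passed one way or the other. The log2 ratio was 3.69 (3.68 to 3.71) for tRNA-Pro-CGG-1-1, 3.58 (3.57 to 3.59) for tRNA-Pro-TGG-2-1 and 3.41 (3.37 to 3.44) for tRNA-Pro-TGG-1-1. tRNA-Pro-AGG-1-1 stood at 0.09 (-0.04 to 0.23).

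In shNS the same 3 rows passed, where 91.5% of all rows did. The log2 ratio of EVs over cells was 2.63 (2.62 to 2.64) for tRNA-Pro-CGG-1-1, 2.51 (2.50 to 2.52) for tRNA-Pro-TGG-2-1 and 2.38 (2.36 to 2.40) for tRNA-Pro-TGG-1-1. tRNA-Pro-AGG-1-1 stood at -0.60 (-0.70 to -0.50), below 0 in contrast to the shDis3l2 pair. Its sign turned under other scalings in both lines: it was -0.38 with TMM in shDis3l2 and 0.50 with DESeq2 size factors in shNS.

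Differences between isoacceptors within a pair are free of scaling. The AGG minus the TGG log2 ratio was -3.46 (-3.60 to -3.33) in shDis3l2 and -3.09 (-3.19 to -2.99) in shNS. CGG exceeded TGG by 0.14 in each line. AGG therefore departed from the other isoacceptors in both lines, while CGG and TGG moved nearly together.

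As a share of tRNA counts, proline differed less between compartments than as a share of whole-RNA counts. It was 6.20%, 6.41%, 6.71%, 5.61% and 6.12% of tRNA counts in D389N, Dis3l2r, Vector, shDis3l2 and shNS EVs, against 3.66% in shDis3l2 cells and 5.85% in shNS cells. EVs over cells gave a 1.53-fold ratio in shDis3l2 and a 1.05-fold ratio in shNS. shDis3l2 EVs at 5.61% lay below shNS cells at 5.85%, so the compartments overlapped. The mean log2 share was 0.42 higher in the 5 EV than in the 2 cell libraries. The two-sided exact permutation test over libraries gave a p of 0.190, and could not give one below 0.0952. AGG alone was at 0.135-fold in shDis3l2 and at 0.119-fold in shNS on this scale.

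The shDis3l2 cell library had lower levels of proline tRNA than the shNS cell library. Between shDis3l2 and shNS cells the summed proline rows stood at a log2 ratio of -1.002 (-1.01 to -0.99) with TMM scaling. Other scalings gave -1.35 to -0.69. tRNA-Pro-TGG-1-1 stood at -1.12 (-1.16 to -1.08) and tRNA-Pro-TGG-2-1 at -1.06 (-1.08 to -1.05), and these 2 rows passed the rule of size, where 35.7% of all rows and 23.2% of tRNA rows passed. tRNA-Pro-CGG-1-1 at -0.91 and tRNA-Pro-AGG-1-1 at -0.69 fell short of 2-fold.

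Of 48 tRNA families measured in this pair, 8 passed the rule of size as lower and 2 as higher, and the median log2 ratio was -0.69. TGG was number 44 from the top, CGG number 37 and AGG number 24. Proline also took a smaller share of tRNA counts, at 3.66% (3.64% to 3.68%) in shDis3l2 cells and 5.85% (5.83% to 5.87%) in shNS cells, a 0.625-fold ratio that no scaling changes. The transcript ENSMUST00000083988 stood at 46.1% of whole-RNA counts in shDis3l2 cells and 19.3% in shNS cells. When it was left out of the totals, the proline ratio was -0.69 and 0 rows passed, whereas 4 passed with totals of all table rows. With 1 library a group there is no replicate check on this difference.

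The EV libraries of the same lines differed little in proline tRNAs. Between shDis3l2 and shNS EVs 0 proline rows passed the rule of size, and 11.2% of all rows did. The log2 ratio was -0.17 (-0.31 to -0.04) for tRNA-Pro-AGG-1-1, -0.02 for tRNA-Pro-CGG-1-1, -0.27 for tRNA-Pro-TGG-1-1 and -0.16 for tRNA-Pro-TGG-2-1. All 4 lay below 0 under every scaling tried, and the summed rows ranged between -0.26 and -0.11.

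The vector and transgene EVs, all with the hairpin against Dis3l2, were then compared with each other. In Vector over shDis3l2 EVs, which differ by an empty vector and by library, tRNA-Pro-AGG-1-1 had a log2 ratio of 1.07 (0.94 to 1.19) and passed the rule of size. It was the only proline row to pass, where 23.9% of all rows did, and its family had the highest ratio of 49 tRNA families. The abundant rows stood at 0.41 for tRNA-Pro-CGG-1-1, 0.54 for tRNA-Pro-TGG-1-1 and 0.39 for tRNA-Pro-TGG-2-1, against a family median of 0.30. This pair shows how far proline rows differed between 2 EV libraries without any Dis3l2 transgene.

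The shRNA-resistant Dis3l2 transgene went with smaller differences. In Dis3l2r over Vector EVs 0 proline rows passed, and 32.1% of all rows did. tRNA-Pro-CGG-1-1 had a log2 ratio of -0.30, tRNA-Pro-TGG-2-1 of -0.26, tRNA-Pro-TGG-1-1 of 0.00 (-0.02 to 0.02) and tRNA-Pro-AGG-1-1 of 0.24 (0.14 to 0.34). The first 2 lay below 0 under every scaling tried and lay close to the family median of -0.24. The tRNA-Pro-TGG-1-1 ratio ranged between -0.22 and 0.16 over the scalings, so its direction was not settled.

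D389N over Vector EVs also had 0 proline rows past the rule, where 23.2% of all rows passed. tRNA-Pro-AGG-1-1 came close at 0.98 (0.90 to 1.07), and tRNA-Pro-TGG-1-1 stood at 0.69 (0.67 to 0.70). tRNA-Pro-CGG-1-1 at 0.08 and tRNA-Pro-TGG-2-1 at 0.02 were near 0 with TMM and below 0 with the totals of whole-RNA rows (the CGG family at -0.17). Free of scaling, tRNA-Pro-TGG-1-1 exceeded tRNA-Pro-TGG-2-1 by 0.66 (0.65 to 0.68), and AGG exceeded TGG by 0.86 (0.77 to 0.94).

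The catalytic mutant and the active transgene share the hairpin and differ by the D389N change and by library. In D389N over Dis3l2r EVs 0 proline rows passed, and 24.5% of all rows did. The log2 ratio was 0.65 (0.56 to 0.74) for tRNA-Pro-AGG-1-1, 0.59 (0.58 to 0.61) for tRNA-Pro-TGG-1-1, 0.29 for tRNA-Pro-CGG-1-1 and 0.20 for tRNA-Pro-TGG-2-1. All 4 were higher in D389N EVs with TMM. Without ENSMUST00000083988 in the totals the CGG family was at -0.02 and the TGG family at -0.05, while AGG kept 0.34.

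Dis3l2r EVs were last set against shNS EVs, which carry no hairpin against Dis3l2. Here 0 proline rows passed, and 14.5% of all rows did. tRNA-Pro-AGG-1-1 had a log2 ratio of 0.90 (0.78 to 1.01), the highest among 49 tRNA families, and passed 2-fold at 1.08 with totals of whole-RNA rows. tRNA-Pro-CGG-1-1 at -0.15, tRNA-Pro-TGG-1-1 at 0.04 and tRNA-Pro-TGG-2-1 at -0.28 differed less. AGG was higher in Vector, Dis3l2r and D389N EVs, with 81.2 to 134 CPM, than in shDis3l2 and shNS EVs, with 39.7 and 47.7 CPM, and these EV pairs share libraries.

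**Figure D4:**
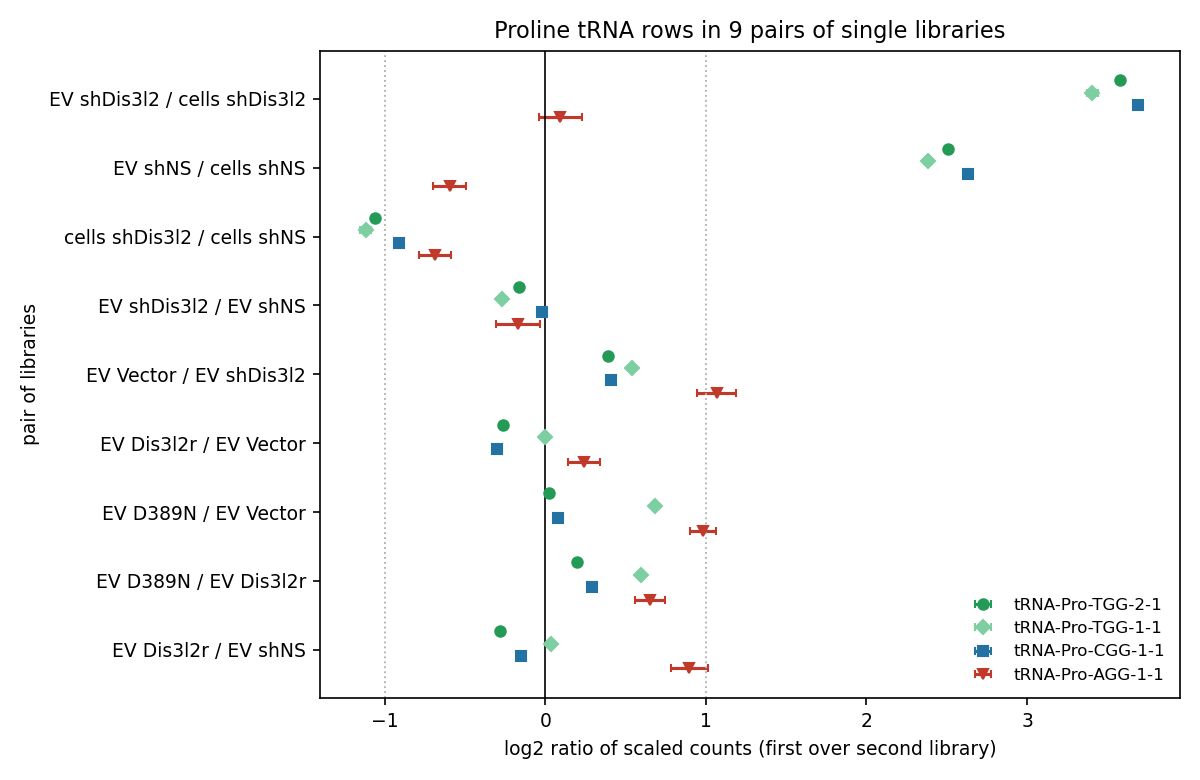
Log2 ratio of scaled counts for the 4 proline rows with at least 100 counts in 9 pairs of single libraries, first over second library, with exact 95% intervals for counting error (most narrower than the symbol) and dotted lines at 2-fold. The TGG and CGG rows lie above 2-fold in both EV over cell pairs, and the AGG row departs from them most in those pairs.

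Pooled by Dis3l2 class, EVs showed no called change in any proline tRNA. The 3 EV libraries without active Dis3l2 by their titles (D389N, Vector, shDis3l2) were fitted against the 2 with it (Dis3l2r, shNS), with TMM scaling and 3 residual degrees of freedom. By edgeR's quasi-likelihood test 0 of 6 rows were called, 0 had an unadjusted p under 0.05, and the DESeq2 Wald test also called 0. Over all 575 rows 0.174% were called, which is 1 row, and 34 had an unadjusted p under 0.05. The log2 differences with SE were 0.53 ± 0.576 for tRNA-Pro-AGG-1-1, 0.32 ± 0.348 for tRNA-Pro-CGG-1-1, 0.34 ± 0.424 for tRNA-Pro-TGG-1-1 and 0.20 ± 0.345 for tRNA-Pro-TGG-2-1.

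The scarce rows stood at -0.19 ± 1.16 for tRNA-Pro-TGG-3-1 and -0.86 ± 1.38 for tRNA-Pro-TGG-4-1. The edgeR adjusted p-values of the 6 rows lay between 0.818 and 0.964. Without the D389N EVs the AGG row was at -0.076 and the tRNA-Pro-TGG-1-1 row at -0.0084, and without the shNS EVs the AGG row was at -0.077 and the tRNA-Pro-TGG-3-1 row at 0.29. The tRNA rows had a median of 0.34 and quartiles of 0.10 and 0.58. The 4 proline rows with at least 100 counts lay between these quartiles, and both scarce rows lay below them. By family, AGG was at 0.63, CGG at 0.40 and TGG at 0.30, beside a median of 0.41 over 50 families, and 0 of 3 were called (0.233% of all 429 rows and families in that fit).

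Among the other tRNA families, 3 had a pattern over the 7 libraries most like that of the summed proline rows. Likeness was the root mean square difference of log2 CPM, each family centred on its own mean, over 45 families with at least 100 counts in every library. Gln-CTG differed by 0.164 (Pearson r 0.995), Leu-TAG by 0.243 (r 0.988) and Thr-AGT by 0.255 (r 0.994). All points share the libraries and their scaling, and each r spans the step between EVs and cells.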

How the data were processed

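Per the labels, 50 ng of EV RNA or rRNA-depleted cell RNA was copied by a template-switching group II intron reverse transcriptase, with a 12 nt random tag for deduplication and 15 PCR cycles. The authors deposited 1 table of estimated counts (expected counts that need not be whole) with no scaling across libraries. The submitters' processing notes name Novoalign, Salmon, UMI-tools and cutadapt, and the builds mm10 and GRCm38. Tool versions, the order of steps and any deduplication were not given in the sources used here.

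Of 580839 rows, the 3894 whole-RNA rows were analysed, with counts rounded for intervals and fits. R 4.3.3 was used with edgeR 4.0.16 (quasi-likelihood test, filterByExpr, Benjamini-Hochberg over all rows tested, threshold 0.05) and with DESeq2 1.42.0. Python 3.11.15 was used with scipy 1.17.1, pandas 2.3.3, numpy 2.4.6 and matplotlib 3.10.9. EV against cell comparisons were scaled by totals, and pairs of one compartment by TMM (trimmed mean of M values). Both fits were also run on simulated counts, with the same spread for all rows and large planted changes. That run does not show how the fits perform on differences as small as those between the Dis3l2 classes. Dis3l2 class was read from the genotype in each title, and the labels of the mutant spell its transgene in different ways. All 6 members were named, with the 3 families most like them. The members and lists were chosen with earlier results of these data known. Each group has 1 library, so p-values rest on the spread between libraries of different genotypes. In the fits this spread is moderated for each row with that of the other rows tested. Depth was 13439408 to 37041326 counts on whole-RNA rows, and intervals and floors cover counting error only. Alternatives were other scalings, DESeq2, count filters, covariates, denominators and leaving out each library.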

Additional observations from a re-analysis of the deposited data

Results flagged for a closer look

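The AGG row and the AGG family, which hold the same counts, went opposite ways in the 2 lines when EVs were set against cells: the log2 ratio was 0.094 in shDis3l2 and -0.60 in shNS. The difference between the lines was not tested, since each ratio comes from 1 EV and 1 cell library. Among 27 measures over the 5 EV libraries, no library was flagged by a rule on the gap to the next library relative to the range. With 5 libraries of different genotypes this rule flags only a very wide gap.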

How the results depend on the processing

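In EVs against cells, 5 proline rows passed when the scarce TGG rows, admitted by their EV counts, are included. In that fit 31.5% of all rows and 72.1% of tRNA rows were called higher. CGG, TGG-1-1 and TGG-2-1, 3 rows, passed with the DESeq2 Wald test and with no filter on low counts, and 3 to 5 rows when 1 library was left out (3 without the shNS EVs or either cell library). The CGG and TGG families were called in every alternative run. AGG was -0.25 on the 4 parental libraries, as row and as family. In shNS, a minimum of 20 counts gave 5 rows in place of 3. The added rows were tRNA-Pro-TGG-3-1, with 20 counts in EVs and 2 in cells, and tRNA-Pro-TGG-4-1, with 21 and 1. Between shDis3l2 and shNS cells, 0 rows passed without the most abundant transcript in the totals and 4 with totals of all rows, in place of 2. In Dis3l2r over shNS EVs, 1 row was higher with totals and without that transcript, and 1 was lower with a minimum of 20 counts, in place of 0.

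In the class fit, no alternative called a proline row or family. Differences turned sign for TGG-2-1 (-0.043 with totals, -0.10 without that transcript), TGG-1-1 (-0.0021 without it) and the TGG family (-0.029 and -0.088). With 1 library left out, AGG ranged between -0.077 and 1.03 (family -0.044 to 1.20), TGG-1-1 between -0.0084 and 0.44, and TGG-3-1 between -0.63 and 0.29. AGG was negative without D389N (-0.076) or shNS EVs (-0.077). The cause of these changes was not tested. Of the other values under an alternative, 357 kept their call or moved within their error, 9 calls of the scarce TGG rows were lost and 3 calls of AGG were gained. Another 260, all single-library ratios, moved beyond their counting interval: 35 of them changed sign, 5 fell under 2-fold and 10 reached it.

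With 1 library a group, replicate numbers pair nothing. With line as a block on the 4 parental libraries, the CGG family stood at 3.16 (edgeR adjusted p 0.000852) and TGG at 3.02 (edgeR adjusted p 0.00255). Depth limits tRNA-Pro-TGG-3-1 and tRNA-Pro-TGG-4-1, with at most 20.5 counts.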
